A study of Mus musculus with 32 samples.

Results

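The libraries described here came from LSK cells and from progenitors of the 4 control mice of the Mx1Cre line, 8 of the 32 RNA-seq libraries in a study of the histone acetyltransferase HBO1, encoded by Kat7. They were taken by their labelled population, Cre line and control status, and each of the 4 LSK libraries was paired with the progenitor library of the mouse that carried the same animal number. LSK cells are the lineage-negative, Sca-1+, Kit+ fraction of blood-forming tissue, which holds the hematopoietic stem cells. The labels do not give the surface gate of the progenitors. All 4 mice were adult C57BL/6 animals of genotype Hbo1fl/+;Mx1Cre, with mice 1 and 2 labelled female and mice 3 and 4 labelled male. The sample titles state that these control cells had lost 1 allele of Hbo1, and the design text calls the controls induced heterozygotes, while the treatment text calls them wild type. The Mx1 promoter that drives this Cre answers to interferon, and Cre was induced with polyIC, an interferon inducer, so every one of the 8 libraries is from an animal that carried Cre and received polyIC. The sources used here do not say how long after induction the cells were sorted. The nearest other libraries were the 8 from 4 Hbo1fl/+;CreER control mice (3 female and 1 male), in which Cre from the Rosa locus was switched on with tamoxifen.

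Blood formation is a hierarchy. Long-lived stem cells, mostly out of the cell cycle, give rise to multipotent progenitors, and these lose self-renewal, start low-level transcription of lineage genes and become committed progenitors of red cells, platelets, granulocytes, monocytes or lymphocytes. Transcription factors such as HLF, GATA2, MEIS1 and MECOM and the surface receptor KIT maintain the stem cell state, FLT3 marks the multipotent and lymphoid-primed cells, and GATA1 with KLF1 or the C/EBP family direct the red cell and granulocyte programs.

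The 8 libraries held between 8257908 and 14948256 counts on genes. The first 2 principal components of log2 CPM (counts scaled to a library of fixed size) carried 54.0% and 22.9% of the variance, and the populations separated on the first. Progenitor library 1 stood apart from the rest. Its correlation with the other progenitor libraries averaged 0.922 across genes, against 0.952 or more in each of the other 7 libraries with its own group. It had the fewest genes with a count (14892), and its log2 CPM, relative to the mean of the 8 libraries, fell with transcript length at a slope of -0.361 per doubling of length, where the slopes of the other libraries lay between -0.048 and 0.105. Libraries of the same mouse deviated from their group means together (r = 0.292, 0.429, 0.292 and 0.480 across genes for mice 1 to 4). Different mice of the same sex could come near these values. Between mice 1 and 2, r was 0.281 and 0.064, and between mice 3 and 4 it was 0.239 and 0.228. Between a female and a male mouse it lay from -0.427 to -0.127.

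Of 13453 genes tested, 1374 (10.2%) differed between LSK cells and progenitors at an adjusted p under 0.05 in edgeR's quasi-likelihood test with mouse as a block. Such genes are referred to as called. Of these, 912 (6.78% of those tested) were higher and 462 (3.43%) were lower in LSK cells, and in all 1374 the sign was the same in each of the 4 mice. Against a fold of 1.5, 559 genes (4.16%) were called, 439 (3.26%) higher and 120 (0.892%) lower. The median log2 difference over all genes tested was 0.01. In 3307 genes (24.6%) the LSK and progenitor libraries did not overlap. Without mouse 1 the count rose to 3204 (23.8% of 13472 tested), 1704 higher and 1500 lower, and 1369 of the 1374 genes were called again, so that the share of called genes higher in LSK cells went from 66.4% to 53.2%. Without mouse 2, 3 or 4, which left the deviating library in place, 502, 712 and 254 genes were called. Of 136 called genes named in the text, 48, 29 and 71 lost their call without mouse 2, 3 or 4 and none without mouse 1, and 32 lost it in a fit without the mouse block. The 4 counts in parentheses after the count of a gene list are those called in the same direction without mouse 1, 2, 3 and 4. Differences are given as log2 LSK over progenitor ± SE, so that a positive value is higher in LSK cells, and levels as TMM-scaled CPM in mice 1 to 4.

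**Figure D1:**
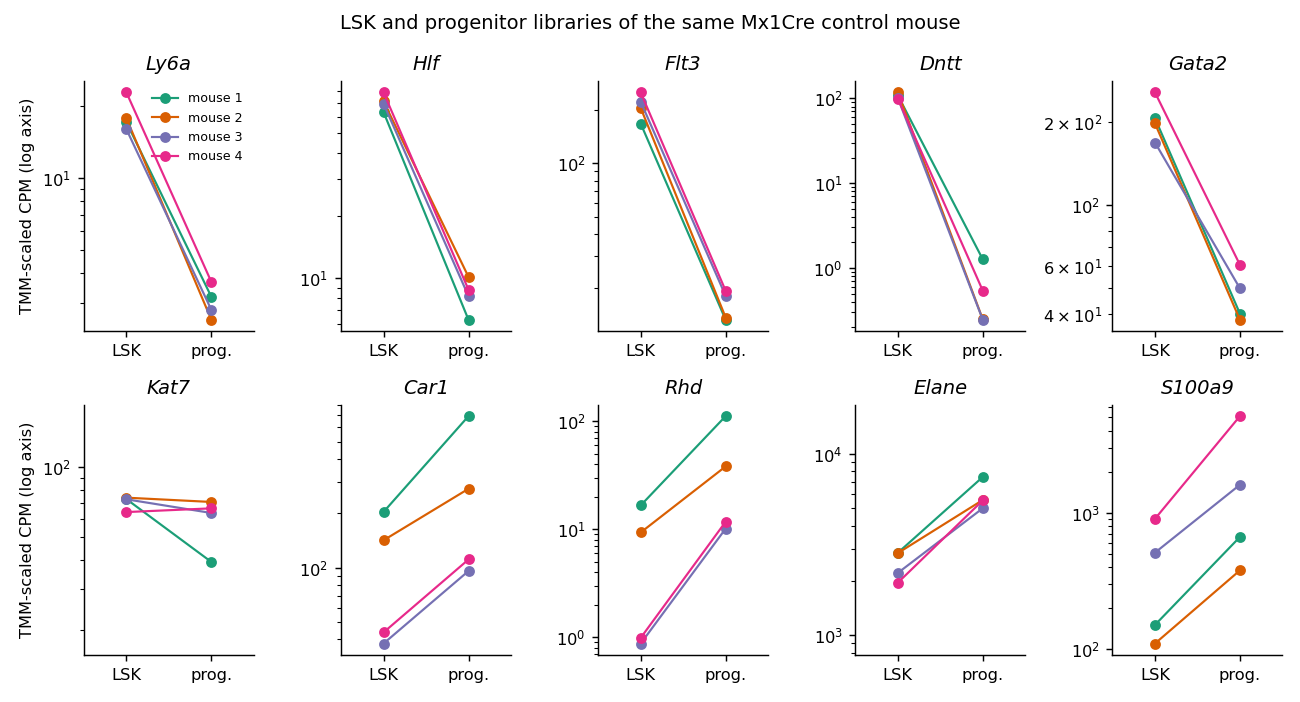
Levels of 10 genes in the LSK and progenitor libraries of the same 4 Mx1Cre control mice, as TMM-scaled CPM on log axes, with a line for each mouse. Ly6a, Hlf, Flt3, Dntt and Gata2 lie higher in every LSK library than in any progenitor library, Kat7 overlaps, and for Car1 and S100a9 each line goes up towards the progenitors although the populations overlap across mice.

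The genes that define the sort separated the populations. Ly6a, which encodes Sca-1, measured 17.2, 17.8, 16 and 22.9 CPM in LSK cells and 3.19, 2.56, 2.81 and 3.68 CPM in progenitors. No progenitor library reached any LSK library, and the difference was 2.59 ± 0.19 (edgeR adjusted p = 0.0011). Kit, the receptor of stem cell factor, was present in every library, at 448, 467, 427 and 453 CPM in LSK cells and 237, 331, 310.2 and 282 CPM in progenitors, a difference of 0.64 ± 0.13. Ly6c2, found on myeloid progenitors and monocytes, went the other way with -1.48 ± 0.14. Ptprc, which encodes the pan-leukocyte antigen CD45, was not called (0.26 ± 0.17). Of 12 tested genes of sort and lineage antigens, 4 were called higher (5, 1, 2 and 1) and 4 lower (5, 4, 4 and 3) in LSK cells.

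Kat7 itself, at chromosome 11, 95271853 to 95310246 in GRCm38, had 72.8, 73.8, 72.7 and 64.1 CPM in LSK cells and 39.2, 70.8, 63.5 and 66.5 CPM in progenitors. The populations overlapped, progenitor library 1 lay lowest, and the difference of 0.27 ± 0.18 was not called (edgeR adjusted p = 0.33). Without mouse 1 it was 0.066. None of the 10 genes for HBO1 and its known partners (BRPF, JADE, ING and MEAF6 proteins) was called by edgeR, at a median of 0.26, although 2 had an unadjusted p under 0.05. DESeq2 called 1 higher and limma-voom none, and without mouse 1 edgeR called 2 higher and 1 lower. 

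The list of stem cell transcription factors, which also holds other genes such as Myct1, was high in LSK cells. Of 33 genes tested, 18 were called higher (24, 14, 15 and 12) and none lower, with a list median of 1.18. Without mouse 1, 1 was lower. Hlf, a PAR-domain factor that marks stem cells across stages of life, measured 63.2, 71.1, 69.3 and 78.6 CPM in LSK cells and 6.31, 10.1, 8.20 and 8.80 CPM in progenitors, a difference of 3.09 ± 0.15 (edgeR adjusted p = 0.00028). Each LSK library was several-fold above the highest progenitor library. Meis1, a homeobox cofactor of HOX proteins, measured 58.4, 56.3, 60.8 and 65.5 and 5.12, 11.6, 12.5 and 12.5 CPM (2.60 ± 0.24), and progenitor library 1 was the lowest. Mecom, the zinc-finger factor EVI1, needed for stem cell self-renewal, measured 9.86, 9.19, 6.75 and 8.48 and 1.71, 1.40, 0.612 and 0.808 CPM (2.95 ± 0.29). Both were chosen for naming after their values were seen. The homeobox gene Nkx2-3 (4.93 ± 0.39), the MYC family gene Mycn (4.71 ± 0.37) and Myct1, a MYC target on the cell surface of stem cells (3.30 ± 0.26), had the largest differences among the named genes of this list, and their progenitor levels were at most 3.13 CPM. Gata2, at chromosome 6, 88193891 to 88207032, measured 206, 197, 168 and 255 CPM in LSK cells and 40.2, 38.2, 49.7 and 60.5 CPM in progenitors (2.14 ± 0.15, edgeR adjusted p = 0.00087). Lyl1 was -0.26 ± 0.12 and not called.

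Of 11 tested Hoxa and Hoxb genes, 6 were called higher (7, 1, 2 and 1) in LSK cells and none lower, at a median of 1.18 with and without mouse 1. Hoxa9, the homeobox gene with a central part in expansion of immature blood cells, had the lowest p of them, with 40.7, 39, 38.5 and 44.6 CPM in LSK cells and 18, 17.9, 15.3 and 20.7 CPM in progenitors (1.18 ± 0.14). Hoxa3, Hoxa5, Hoxa7 and Hoxa10 were higher by 0.76 to 2.42. Their groups did not overlap in any of these genes, beside 24.6% of all genes tested without overlap.

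Surface molecules of stem and multipotent cells had 19 of 30 members called higher (23, 13, 16 and 9) and none lower, at a median of 1.41. Flt3, the receptor tyrosine kinase of multipotent progenitors at chromosome 5, 147330741 to 147400489, measured 167, 205, 222 and 250.2 CPM in LSK cells and 13.2, 13.6, 18 and 19.2 CPM in progenitors. At 3.72 ± 0.13 it had the lowest adjusted p of all genes tested (0.00017 in edgeR's test). Its LSK and progenitor libraries were far apart compared with the spread within each. Procr, the protein C receptor EPCR of long-term stem cells (3.28 ± 0.48), and Slamf1, the SLAM antigen CD150 (4.07 ± 0.67), were low in LSK cells too, at most 7.03 and 5.84 CPM. Esam, an adhesion molecule, was higher by 4.41 ± 0.43, and Vldlr, a lipoprotein receptor, by 4.12 ± 0.40. Robo4, a guidance receptor of stem and endothelial cells, had between 74 and 115 counts in the LSK libraries and none in any progenitor library, which puts it at least 108-fold higher in LSK cells against a floor of 3 counts over the group. Cd34, present in both populations, measured 548, 632, 655 and 708 and 266, 301, 329.6 and 349 CPM (1.03 ± 0.11). Procr, Slamf1 and Robo4 were chosen for naming after their values were seen.

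Genes linked to stem cell quiescence were called higher in 13 of 32 cases (16, 4, 6 and 4) and lower in 1, with a median of 0.48, and in 2 without mouse 1. Cdkn1c, the cell cycle inhibitor p57, measured 1.90, 1.35, 1.83 and 3.81 CPM in LSK cells and 0.371, 0.330, 0 and 0.539 CPM in progenitors (2.75 ± 0.57), so its level was low even where it was high. Adgrg1, the adhesion receptor GPR56, was abundant, with 664, 755, 774 and 897 and 100.3, 151, 174 and 175 CPM (2.39 ± 0.14). The G-protein regulator Rgs1 was higher by 3.41 ± 0.45. Egr1, an immediate early factor, measured 13.5, 10.1, 3.34 and 11 and 1.63, 0.990, 0.734 and 1.26 CPM (2.99 ± 0.29). Txnip, the thioredoxin-interacting protein, was higher by 0.76 ± 0.13 although its populations overlapped, and Evi2a was the single member called lower (-1.03 ± 0.19).

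Lymphoid priming genes were high in LSK cells, with 24 of 32 called higher (25, 12, 17 and 9), 1 lower and a median of 2.34. Dntt encodes terminal transferase, which adds nucleotides at immune receptor joints in early lymphoid cells. It measured 108, 117, 101 and 99.4 CPM in LSK cells and 1.26, 0.247, 0.245 and 0.539 CPM in progenitors, where it rested on 28 counts in all against 5743. The difference was 7.48 ± 0.36 (edgeR adjusted p = 0.00028). Gimap1 (3.55 ± 0.21) and Gimap6 (4.12 ± 0.25), GTPases of lymphocyte survival, and Lax1, an adaptor of lymphocyte signalling (4.82 ± 0.42), were also called. Cd52, a lymphocyte surface peptide that myeloid cells also carry, was the member called lower (-1.02 ± 0.21), and Ikzf1, the lymphoid regulator Ikaros, was not called at 349, 348, 301 and 279.7 and 239, 352, 285 and 291 CPM.

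Antigen presentation genes of MHC class II followed, with 6 of 10 called higher (8, 5, 5 and 4) and none lower at a median of 1.85. Cd74, the invariant chain, measured 42.9, 44.8, 28.8 and 41.5 CPM in LSK cells and 9.42, 5.20, 3.67 and 8.17 CPM in progenitors (2.63 ± 0.21). H2-Aa (3.38 ± 0.32), H2-Eb1 (2.73 ± 0.25), H2-Ob (2.73 ± 0.17) and H2-Ab1 (1.24 ± 0.17) were called too, while the loading chaperone H2-DMa was not (0.30 ± 0.14).

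Transcripts of mature lymphocytes were found in the LSK libraries at low levels. Igkc, the kappa light chain constant region, measured 44.9, 74, 17.3 and 20.3 CPM in LSK cells and 0.223, 3.71, 1.10 and 0 CPM in progenitors (5.32 ± 0.64), and mice 1 and 2 were the higher ones. Of the B cell list 4 of 9 tested genes were called higher (5, 0, 4 and 0) and none lower, its summed level over 17 genes was 57 to 113 CPM in LSK cells and 36 to 57 CPM in progenitors, and its member Ms4a1 had at most 3 counts in any library. In the T and NK cell list 5 of 10 were called higher (6, 2, 3 and 3) and 1 lower. Lck, a T cell kinase also found in multipotent cells, was higher by 2.47 ± 0.24, while Nkg7, a granule membrane protein that granulocyte progenitors also express, was lower (-0.77 ± 0.16). The summed level of that list was 214 to 239 CPM in LSK cells and 269 to 409 CPM in progenitors. Nkg7, also on the list of primary granule genes, made up most of that sum in progenitors. Its level there was 264 to 447 CPM as TMM-scaled values, while list sums are plain CPM. The sum therefore does not describe the other genes of the list. Among endothelial and stromal genes 4 of 9 were called higher (5, 2, 4 and 1) and 2 lower (3, 1, 1 and 1), Col3a1, Adipoq and Dcn had no count, and Stab2, Lepr, Pdgfra and Bglap had at most 3 counts in any library. The part of such cells in the results was not tested. In bulk libraries, fewer cells of a type and less RNA per cell cannot be told apart, for these and for all genes that follow.

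Megakaryocyte genes had the highest median of all lists, 2.62, with 16 of 24 called higher (19, 11, 14 and 8) and none lower. Itga2b, the platelet integrin CD41, measured 175, 144, 128 and 191 CPM in LSK cells and 22.2, 22.4, 27.9 and 29.6 CPM in progenitors (2.64 ± 0.16, edgeR adjusted p = 0.00051). The gap between the populations was wide compared with the spread of the mice. Pf4, platelet factor 4, measured 34.3, 15.2, 14.8 and 16.9 and 2.60, 0.412, 0.979 and 1.44 CPM (3.98 ± 0.30), with LSK library 1 above the other LSK libraries. Vwf, the von Willebrand factor of platelets and of platelet-biased stem cells, measured 38.9, 31.9, 17.1 and 21.9 and 2.37, 9.07, 2.81 and 2.96 CPM (2.80 ± 0.36). F2r, the thrombin receptor PAR1, was higher by 2.83 ± 0.17, Mmrn1, a platelet granule protein, by 5.72 ± 0.41, and Lat, an adaptor of platelet and T cell signalling, by 2.98 ± 0.28. Nbeal2, which platelet granules require, was the most abundant member that was not called, at 189.7, 217, 211 and 259 and 51.8, 146, 204 and 214 CPM. In progenitor library 1 the summed level of the list was 222 CPM, against 408 to 489 CPM in the other progenitor libraries and 781 to 1036 CPM in LSK cells.

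Basophil and mast cell genes were divided. Of 17 tested, 7 were called higher (7, 7, 7 and 6) in LSK cells and 1 lower, at a median of 0.32, and leaving out mouse 1 gave the same counts. Prss34, the basophil protease Mcpt11, measured 283, 223, 232 and 367 CPM in LSK cells and 38.1, 26.1, 29.6 and 39.4 CPM in progenitors (3.04 ± 0.13, edgeR adjusted p = 0.00020). Mcpt8, another basophil protease (1.84 ± 0.16), Fcer1a, the IgE receptor alpha chain (2.36 ± 0.19), and Cd200r3, an activating receptor of basophils and mast cells (2.63 ± 0.26), were also called higher. Hdc, which makes histamine, was called lower (-0.68 ± 0.15). Prg2, the eosinophil major basic protein, was not called between populations (-0.12 ± 0.12) and was higher in mice 1 and 2 in both, with 191, 139, 41.9 and 65.8 CPM in LSK cells and 228, 163, 43.9 and 61.4 CPM in progenitors. The connective tissue mast cell genes Mcpt4, Tpsab1, Mrgprb2 and Rgs13 had no count in any of the 8 libraries.

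**Figure D2:**
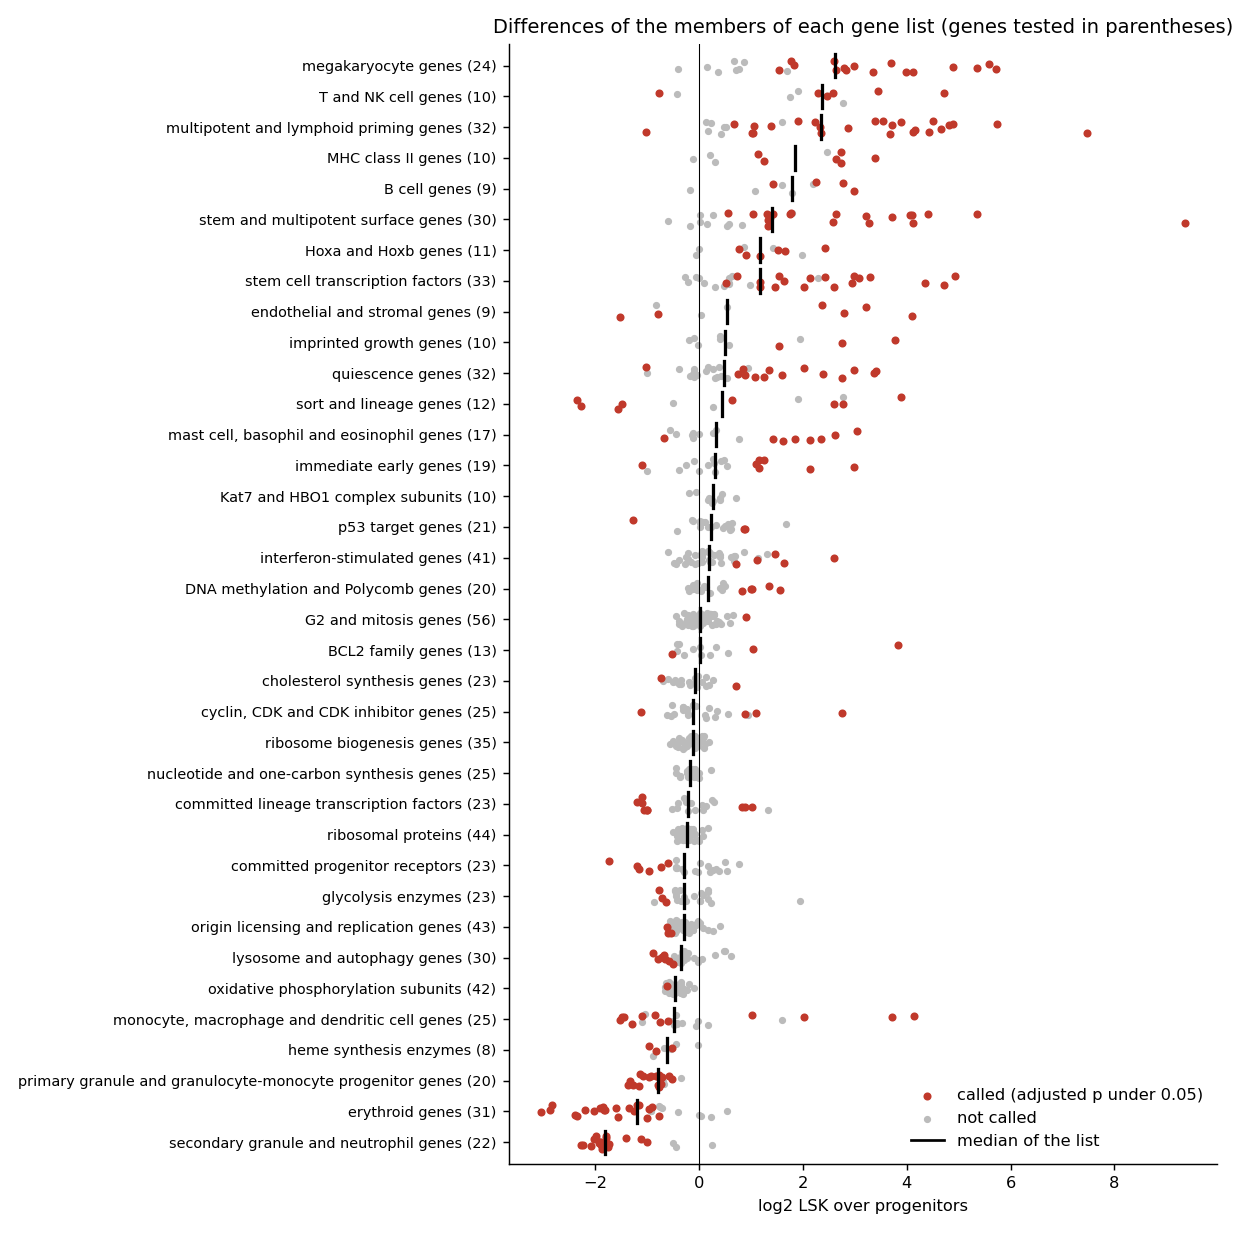
Log2 difference between LSK cells and progenitors for each tested member of the 36 gene lists, ordered by list median (black bar), with called genes in red. Megakaryocyte genes lie farthest to the right at a median of 2.62 and secondary granule genes farthest to the left at -1.82. The rightmost point is Robo4, without a count in progenitors, whose position depends on the added prior count.

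Erythroid genes were low in LSK cells: 21 of 31 were called lower (24, 12, 18 and 8) and none higher, at a median of -1.19, and without mouse 1, 1 was higher. The level of these genes differed strongly between mice in both populations. The summed level of 35 erythroid genes was 1865, 1468, 799.9 and 849.5 CPM in the LSK libraries and 4202, 2700.4, 1155 and 1082 CPM in the progenitor libraries of mice 1 to 4. The female mice 1 and 2 had more erythroid RNA in LSK cells than the male mice 3 and 4 had in progenitors, while progenitors exceeded LSK cells within each of the 4 mice. Without the mouse block, 1 of the 31 genes was called. Sex and animal cannot be told apart with 2 mice of each sex.

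Car1, carbonic anhydrase 1 of red cell precursors, shows the pattern, with 204, 142, 38 and 43.8 CPM in LSK cells and 694, 274, 95.9 and 111 CPM in progenitors. LSK cells of mouse 1 had more Car1 RNA than progenitors of mouse 3, yet within each mouse the progenitors were higher. The log2 differences were -1.77, -0.95, -1.33 and -1.34 in mice 1 to 4, and the difference of -1.35 ± 0.16 was called (edgeR adjusted p = 0.0037). Rhd and Rhag, the Rhesus blood group proteins, were lower in LSK cells (-2.83 ± 0.28 and -2.02 ± 0.20). Aqp1, a water channel, was -1.0 ± 0.12 and Klf1, the master factor of the red cell program, -1.19 ± 0.18. Cldn13, a claudin of mouse red cell precursors, had the largest erythroid difference among the genes named, -2.88 ± 0.27. The transferrin receptor Tfrc (-0.73 ± 0.11), the erythropoietin receptor Epor (-1.17 ± 0.22) and the iron exporter Slc40a1 (-1.74 ± 0.13) were also called lower. Of 8 heme synthesis enzymes 3 were called (4, 1, 2 and 1), all lower in LSK cells: Alas1 (-0.84 ± 0.12), Cpox (-0.96 ± 0.13) and Fech (-0.53 ± 0.12). Car2 was lower in each mouse but not called (-0.93 ± 0.29), and its difference was -0.58 without mouse 1 (edgeR adjusted p = 0.021).

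Promoter sequence was examined for letters bound by the regulators of these programs, in the 250 bases before the RefSeq start of each gene (GRCm38.p6, first-listed start), which could be matched for 10005 of the 13453 genes tested. The GATA motif AGATAA, on either strand, was present in 8 of 23 erythroid promoters (34.8%) and in 6.14% of all 10005. It was in 8.96% of the promoters of genes called higher in LSK cells and in 9.20% of those called lower. The 3 windows printed are those of erythroid genes with a match, written 5′ to 3′ along the gene's strand with the match in capitals (TTATCT is the reverse complement). Rhd lies at chr4:134864286-134864535 on the plus strand, with the match 43 bases before the start. Epb42, a membrane skeleton protein chosen for naming after its values were seen, lies at chr2:121036878-121037127 on the minus strand, with the match 226 bases before it, and Epor lies at chr9:21963577-21963826 on the minus strand, with the match 54 bases before it.
Rhd: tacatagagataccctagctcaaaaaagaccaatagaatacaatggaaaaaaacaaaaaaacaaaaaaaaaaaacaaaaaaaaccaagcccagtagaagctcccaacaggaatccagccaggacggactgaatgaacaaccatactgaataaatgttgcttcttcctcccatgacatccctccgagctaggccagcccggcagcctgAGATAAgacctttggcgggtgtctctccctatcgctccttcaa
Epb42: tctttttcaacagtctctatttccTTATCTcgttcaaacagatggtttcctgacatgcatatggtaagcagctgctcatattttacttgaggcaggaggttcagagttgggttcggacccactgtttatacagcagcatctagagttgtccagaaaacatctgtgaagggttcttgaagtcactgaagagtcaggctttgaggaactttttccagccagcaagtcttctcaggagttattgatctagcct
Epor: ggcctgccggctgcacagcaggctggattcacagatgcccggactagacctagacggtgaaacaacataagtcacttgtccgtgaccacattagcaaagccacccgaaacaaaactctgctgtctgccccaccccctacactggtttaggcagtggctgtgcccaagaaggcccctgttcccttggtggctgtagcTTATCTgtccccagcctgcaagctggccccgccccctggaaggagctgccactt
Epb42 measured 1.31, 1.03, 0.238 and 0.263 CPM in LSK cells and 7.86, 3.55, 1.47 and 0.988 CPM in progenitors (-2.20 ± 0.38). A match describes these letters only and not a bound site.

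Genes of primary granules and granulocyte-monocyte progenitors were lower in LSK cells in 17 of 20 cases (20, 9, 10 and 3) and higher in none, at a median of -0.78. Their summed level, in contrast to that of the erythroid genes, differed little between mice. It lay between 25052 and 29188 CPM in LSK cells and between 43985 and 45338 CPM in progenitors, with Mpo a large part of it. Single members could differ more: Lyz2 was at 2444 CPM in progenitor library 4 and 625 to 929 CPM in the other progenitor libraries. Without the mouse block, 15 genes of the list were called. Mpo, myeloperoxidase, was among the most abundant RNAs of both populations, with 12847, 13834, 11830.1 and 10930.5 CPM in LSK cells and 16663, 21902, 20607 and 21664 CPM in progenitors (-0.71 ± 0.13). Elane, neutrophil elastase, measured 2843, 2833, 2201 and 1945 and 7448, 5558, 5007 and 5532 CPM (-1.26 ± 0.13, edgeR adjusted p = 0.0026), and Prtn3, proteinase 3, 2777, 2791, 2746 and 2405 and 7989.9, 4853, 5559 and 5911 CPM (-1.16 ± 0.15). Per length, as TPM, Elane stood at 5692 in LSK cells and 11011 in progenitors, which exceeds the 123 TPM of Flt3 in LSK cells, so elastase RNA was the more abundant of these in LSK cells. Ms4a3 (-1.09 ± 0.15), a tetraspan protein of granulocyte progenitors, the glutathione transferase Gstm1 (-1.14 ± 0.13) and Clec12a, an inhibitory lectin receptor of myeloid cells (-0.96 ± 0.15), were lower as well, and Calr, a chaperone of granule proteins, was not called (-0.36 ± 0.11).

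The ETS motif GGAAGT, on either strand, was in 9 of 17 primary granule promoters (52.9%), in 11 of 18 secondary granule promoters (61.1%) and in 24.2% of all 10005. Among genes called higher in LSK cells it was in 18.4%, and among those called lower in 29.7%. The windows of elastase, proteinase 3 and myeloperoxidase follow, each written 5′ to 3′ with its match in capitals, since they belong to the most abundant granule RNAs of both populations. Elane lies at chr10:79886062-79886311 and Prtn3 at chr10:79879417-79879666, neighbours on the plus strand of chromosome 10, and Mpo at chr11:87793534-87793783, also on the plus strand. Mpo was chosen for naming after its values were seen.
Elane: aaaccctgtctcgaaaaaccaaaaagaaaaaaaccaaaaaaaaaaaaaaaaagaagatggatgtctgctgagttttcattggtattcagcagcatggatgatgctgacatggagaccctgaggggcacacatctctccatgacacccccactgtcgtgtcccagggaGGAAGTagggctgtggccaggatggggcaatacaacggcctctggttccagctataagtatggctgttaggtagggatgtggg
Prtn3: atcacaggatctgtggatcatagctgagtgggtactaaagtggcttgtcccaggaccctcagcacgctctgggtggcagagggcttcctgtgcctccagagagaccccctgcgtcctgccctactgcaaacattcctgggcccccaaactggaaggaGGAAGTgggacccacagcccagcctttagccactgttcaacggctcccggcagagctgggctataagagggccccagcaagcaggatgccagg
Mpo: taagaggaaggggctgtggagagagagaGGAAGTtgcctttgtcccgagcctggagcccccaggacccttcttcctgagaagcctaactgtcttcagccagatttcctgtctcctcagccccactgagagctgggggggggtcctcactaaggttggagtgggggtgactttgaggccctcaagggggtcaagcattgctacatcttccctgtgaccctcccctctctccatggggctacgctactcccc
The matches began 83, 93 and 222 bases before the respective starts. The C/EBP palindrome TTGCGCAA, on which both strands read alike, was in 1 of the 17 primary granule promoters (5.88%) and in 0.24% of all, and the shorter C/EBP motif TTGCAA, likewise alike on both strands, was in 0 of the 17 against 3.82% of all. The RUNX motif TGTGGT, on either strand, was in 7 (41.2%) against 11.1%, and the NF-Y motif CCAAT, on either strand, in 8 (47.1%) against 37.1%. None of these motifs contains another.

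Secondary granule and neutrophil genes had the lowest median of all lists, -1.82, with 19 of 22 called lower (20, 19, 19 and 14) and none higher. Their level differed by mouse as well. The summed level of 23 genes was 1311, 1153, 2473 and 3829.8 CPM in the LSK libraries and 3209, 2449, 6710.3 and 18119 CPM in the progenitor libraries of mice 1 to 4. The male mice 3 and 4 were high in both populations, and progenitor library 4 was the highest of all. S100a9, an abundant calcium-binding protein of neutrophils, measured 151, 110.0, 510.1 and 903 CPM in LSK cells and 665, 379, 1605 and 5112 CPM in progenitors, and the per-mouse log2 differences were -2.14, -1.78, -1.65 and -2.50 (-2.02 ± 0.17, edgeR adjusted p = 0.0015). Mmp9, gelatinase B (-1.93 ± 0.15), the resistin-like Retnlg (-2.24 ± 0.24) and Ly6g, the defining neutrophil antigen (-2.27 ± 0.30), were also higher in mice 3 and 4 than in mice 1 and 2 within each population, and Ly6g reached 0.657, 0.872, 5.16 and 7.75 CPM in LSK cells and 3.19, 5.03, 13.8 and 58 CPM in progenitors. Fcnb, ficolin B of early granulocytes (-1.90 ± 0.20), and the chitinase-like Chil3 (-1.80 ± 0.19) did not overlap between populations, as was so for 24.6% of all genes tested. Wfdc21 of the same list was called at -2.08 ± 0.24. Lyz2, lysozyme, measured 323, 297, 406 and 602 and 759, 625, 929 and 2444 CPM (-1.38 ± 0.18). Itgam, the CD11b chain used to deplete mature myeloid cells, was higher in LSK cells in mouse 1 and lower in the others (-0.50 ± 0.40, not called), and without mouse 1 it was -0.99 (edgeR adjusted p = 0.0049). Without the mouse block 6 of the 22 genes were called. The part of mature neutrophils in these values was not tested.

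**Figure D3:**
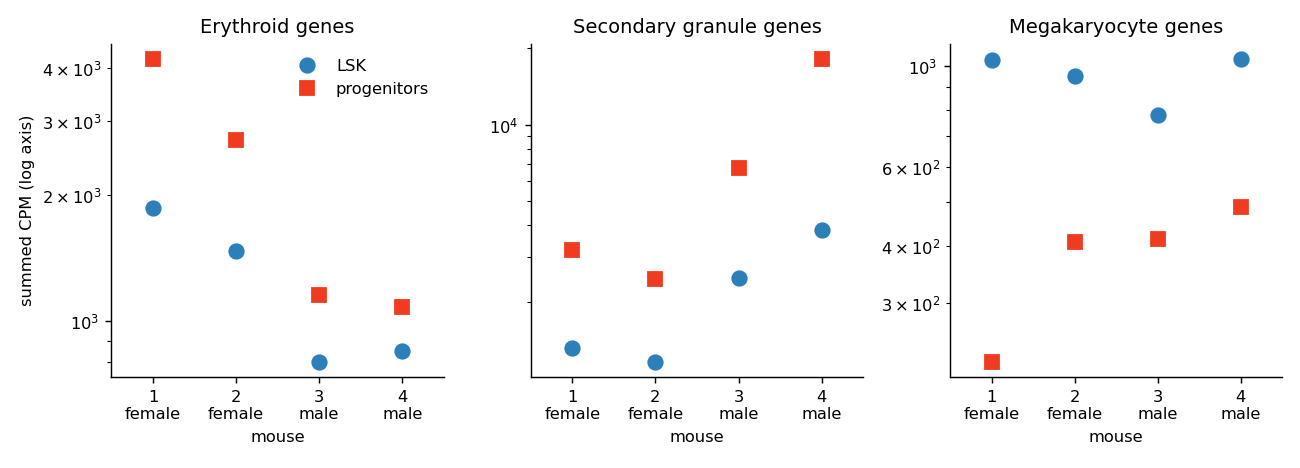
Summed CPM, on log axes, of the erythroid, secondary granule and megakaryocyte lists in the LSK (circles) and progenitor (squares) libraries of each Mx1Cre control mouse. Erythroid sums are highest in mice 1 and 2 and granule sums in mice 3 and 4 in both populations, while within each mouse the progenitors lie above the LSK cells for both lists and below them for megakaryocyte genes.

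Monocyte, macrophage and dendritic cell genes went both ways, with 8 of 25 called lower (14, 2, 4 and 2) and 4 higher (4, 3, 3 and 2) in LSK cells. Irf8, the factor of monocyte and dendritic cell fate, was lower in each mouse without being called (-0.43 ± 0.15), and without mouse 1 was -0.56 (edgeR adjusted p = 0.0052). The adhesion molecule Vcam1 (-1.53 ± 0.17) and the galectin Lgals3 (-1.45 ± 0.19) were lower, whereas Tcf4, a factor of plasmacytoid dendritic cells and lymphoid progenitors (1.01 ± 0.12), and Siglech, a receptor of plasmacytoid dendritic cells (4.14 ± 0.52), were higher. Siglech levels were low, at 3.80, 4.20, 1.91 and 1.71 CPM in LSK cells.

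Receptors of committed progenitors were lower in LSK cells in 6 of 23 cases (11, 3, 5 and 1) and higher in none, with 1 higher without mouse 1. Besides Tfrc, Epor, Slc40a1 and Clec12a named above, Fcgr3, the Fc gamma receptor of granulocyte-monocyte progenitors, measured 123, 121, 78.6 and 85.5 CPM in LSK cells and 218, 254, 179 and 274 CPM in progenitors (-1.19 ± 0.16). Csf3r, the G-CSF receptor, differed in direction between mice, at 0.72, -0.079, -0.35 and -0.22 for mice 1 to 4, and was not called. Transcription factors of committed lineages were called lower in 6 of 23 cases (10, 4, 4 and 0) and higher in 3 (5, 1, 2 and 0). Of the 4 C/EBP factors on the list, Cebpd (-1.0 ± 0.14), Cebpb (-1.10 ± 0.15) and Cebpe (-1.01 ± 0.17) were lower and Cebpa, named after its value was seen, was not called at a log2 difference of -0.25, while the GATA cofactor Zfpm1 (FOG1, 0.83 ± 0.19) and the corepressor Cbfa2t3 (ETO2, 0.88 ± 0.20) were higher. Myb, which both stem cells and cycling progenitors need, was the most abundant factor of this list that was not called, with 1038, 986, 941 and 939 and 935, 1020.1, 1056 and 729 CPM.

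The cell cycle lists had between 1 of 56 and 4 of 25 members called, where the whole test had 10.2%. That background was 6.78% for calls upward in LSK cells and 3.43% for calls downward. Leaving out mouse 1 made these shares 12.6% and 11.1%. The G2 and mitosis list had 1 of 56 called (3, 0, 1 and 0), namely Psrc1, a microtubule protein (0.91 ± 0.15), at a median of 0.01, and Top2a, a topoisomerase of cycling cells, measured 789.9, 776, 779.7 and 759.6 CPM in LSK cells and 565, 737, 778 and 687 CPM in progenitors. Of 43 genes for origin licensing and replication, 3 were called lower (15, 0, 0 and 0) and none higher, at a median of -0.29, and 38 of the 43 had a negative difference. Those called were Rrm2, a ribonucleotide reductase subunit (-0.61 ± 0.12), Cdc6, which loads the helicase onto origins (-0.60 ± 0.12), and Cdc45, a helicase subunit (-0.54 ± 0.12). Mcm6, the most abundant helicase gene not called, measured 635, 637, 682 and 654 and 843, 769.6, 716 and 760.4 CPM. Without the mouse block, 8 were called lower. Among cyclins, kinases and inhibitors, Ccnd1, cyclin D1 (1.10 ± 0.17), Cdkn1a, the inhibitor p21 (0.88 ± 0.18), and Cdkn1c were called higher among 25 (6, 0, 1 and 0), and Ccne1, cyclin E1 of S phase entry, was the 1 called lower (-1.12 ± 0.20; 5, 0, 1 and 0). Cdk4 was not called (-0.22 ± 0.15).

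Calls in the metabolic lists ranged from none to 7 of 30. Of all genes tested, 6.78% were called higher and 3.43% lower. Of 42 oxidative phosphorylation subunits 1 was called (12, 0, 0 and 0), the cytochrome oxidase subunit Cox7a2 (-0.63 ± 0.16), although all 42 differences were negative, at a median of -0.47. That median was -1.16, -0.20, -0.10 and -0.44 in mice 1 to 4, so mouse 1 was farthest from zero, and without mouse 1 the median was -0.25. None of 44 ribosomal protein genes was called by edgeR, with or without mouse 1, or by DESeq2 or limma-voom, none had an unadjusted p under 0.05, and their median went from -0.23 to 0.061 without it. Atp5b, the ATP synthase beta subunit, measured 1303, 1256, 1249 and 1225 CPM in LSK cells and 1853, 1504, 1359 and 1566 CPM in progenitors, and the ribosomal gene Rpl4 2328, 2354, 2242 and 2168 and 4055, 2531, 1993 and 2526 CPM, each highest in progenitor library 1. Both lists consist of short transcripts, with median lengths of 852 and 740.0 bases against 2644 for all genes tested, and the length slope of progenitor library 1 is given above. Its part in these values was not tested. Of 23 glycolysis enzymes 3 were lower (10, 0, 1 and 0), namely Aldoa (-0.64 ± 0.12), Eno1 (-0.77 ± 0.18) and the lactate carrier Slc16a1 (-0.71 ± 0.15). Of 30 lysosome and autophagy genes 7 were lower (13, 1, 1 and 0), among them the membrane protein Lamp1 (-0.71 ± 0.12), the cathepsin Ctsh (-0.89 ± 0.14) and the sialidase Neu1 (-0.80 ± 0.12). EdgeR called none of 35 ribosome biogenesis genes and none of 25 genes of nucleotide and one-carbon synthesis, with 4 of each at an unadjusted p under 0.05. DESeq2 called 1 of each lower, limma-voom none, and edgeR without mouse 1 called 3 and 4 lower. Ncl, nucleolin of the ribosome-making nucleolus, measured 1596, 1501, 1876 and 1695 CPM in LSK cells and 2654, 1713, 2039 and 1927 CPM in progenitors. In the cholesterol pathway Srebf2, its regulator, was higher (0.71 ± 0.16) and Mvd lower (-0.73 ± 0.18) among 23 genes.

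Interferon-stimulated genes were examined since polyIC was given to every mouse. Of 41 tested, 5 were called higher (8, 2, 3 and 2) in LSK cells and none lower, at a median of 0.20. Of all genes tested, 6.78% were called higher. Ly6a, which encodes the LSK sort antigen Sca-1, was among the 5, and the part of the sort in its difference was not tested. Ifitm1, a membrane protein that restricts viruses, measured 70.1, 82.1, 138 and 135 CPM in LSK cells and 24.9, 25.8, 43.5 and 65.8 CPM in progenitors (1.46 ± 0.15), and mice 3 and 4 were the higher ones in both. Ddx58, the RNA sensor RIG-I (1.11 ± 0.19), the interferon-induced Ifi44 (1.63 ± 0.35) and the GTPase Gbp2 (0.72 ± 0.16) were also called, while Psmb8, an immunoproteasome subunit, was not (-0.16 ± 0.18). The summed level of 43 genes was 2171 to 2557 CPM in LSK cells and 1768 to 2462 CPM in progenitors, ranges that overlap. In the CreER controls, given tamoxifen, 18 of 43 were called higher in LSK cells and none lower, at a median of 0.37. Scaled over the 16 control libraries, Ifi44 in LSK cells was at 154, 66.3, 163 and 89.2 CPM with CreER and 9.95, 8.95, 8.33 and 9.45 CPM with Mx1Cre. Ddx58 was at 206, 138, 160 and 147 against 25.7, 30.4, 25.2 and 38.3 CPM. Ifitm1 was not lower with Mx1Cre, at 68.8, 55.1, 83.8 and 67.1 against 70.2, 82.1, 142 and 137 CPM. Animals given no inducing agent were not analysed here.

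Immediate early genes, which also respond to handling of cells, were called higher in 6 of 19 cases (9, 2, 5 and 1) and lower in 1. The background for this list and those that follow was 6.78% of all genes tested called higher and 3.43% called lower. Jun (1.15 ± 0.22), Dusp1 (1.15 ± 0.20) and Dusp2 (1.10 ± 0.14) were higher, and Klf4, which also marks monocytes, was lower (-1.11 ± 0.23). LSK library 3 was the lowest LSK library for Jun, at 208, 203, 104 and 216 CPM in LSK cells and 73.6, 107, 77.3 and 65.2 CPM in progenitors. Of 20 DNA methylation and Polycomb genes 5 were higher (6, 2, 4 and 0) and none lower: the demethylase Tet1 (1.35 ± 0.19), the de novo methyltransferase Dnmt3b (0.83 ± 0.13) and the Polycomb genes Cbx2 (1.55 ± 0.26), Cbx7 (1.01 ± 0.17) and Phc1 (1.0 ± 0.15). Dnmt1, the maintenance methyltransferase, was not called (0.029 ± 0.16), and was -0.16 without mouse 1. Of 13 BCL2 family genes tested, the survival gene Bcl2 measured 124, 163, 173 and 155 and 41.6, 85.9, 99.7 and 84.2 CPM (1.04 ± 0.16). Its relative Bok was higher (3.83 ± 0.65) but low in both populations. Scaled over the 16 control libraries, Bok was at most 2.66 CPM in LSK cells and 0.279 CPM in progenitors of Mx1Cre controls. The death-promoting Bid was lower (-0.52 ± 0.11), and Mcl1, which stem cells depend on, was not called (-0.12 ± 0.11). Of 21 p53 targets Cdkn1a and the stress gene Sesn1 (0.87 ± 0.14) were higher and the death receptor Fas was lower (-1.27 ± 0.32), and Trp53, which encodes p53 itself, was not called (0.072 ± 0.11). Of 10 imprinted growth genes 3 were called higher (4, 0, 0 and 0) and none lower, at a median of 0.49.

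Beyond the lists, 1139 of the 1374 called genes belonged to none of them. Among genes of at least 3 log2 CPM on average, those with the largest positive differences included Col4a1, a basement membrane collagen (4.48 ± 0.30), the disintegrin family member Adam11 (4.42 ± 0.57), Pglyrp2, a peptidoglycan amidase (4.40 ± 0.24), Als2cl (4.14 ± 0.60) and the cytoskeletal linker Dst (4.11 ± 0.59). Col4a1 measured 14.5, 17, 17.1 and 21.2 CPM in LSK cells and 0.297, 0.825, 0.979 and 1.17 CPM in progenitors. The largest negative differences included Fpr1, the formyl peptide receptor of neutrophils (-2.44 ± 0.36), Sphk1, a sphingosine kinase (-2.25 ± 0.18), the metallothionein Mt2 (-2.09 ± 0.27) and Pklr, the pyruvate kinase of liver and red cells (-2.06 ± 0.29). Sphk1 measured 34.8, 21.9, 2.94 and 3.55 and 177, 71.5, 16.9 and 20.5 CPM, with mice 1 and 2 high as for the erythroid genes, and Fpr1 measured 0.511, 0.0792, 2.38 and 7.56 and 1.41, 2.06, 12 and 42.8 CPM, with mice 3 and 4 high as for the granule genes.

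The same contrast in the CreER controls was the comparison most like this. In a fit of the 16 control libraries, 2750 of 13999 genes (19.6%) were called in CreER controls, 1553 (11.1%) higher and 1197 (8.55%) lower. Of the 1374 genes called in Mx1Cre controls, 935 were called in the same direction in CreER controls and 10 in the opposite direction. Across the 13999 genes the log2 differences had r = 0.692 and a Spearman rho of 0.471, as a description over genes that are not independent. The difference of differences was called for 326 genes (2.33%), 218 (1.56%) more positive and 108 (0.771%) more negative with Mx1Cre, and in 182 of the 326 the 2 sets of mice had opposite signs. Without Mx1Cre control mouse 1, 2, 3 or 4 the count was 1239, 273, 255 and 119, without CreER control mouse 1, 2, 3 or 4 it was 86, 101, 170 and 121, and without the mouse block it was 117. Cre line, inducing agent, sex balance and animals differ together between the sets and cannot be told apart. Levels in the next 3 paragraphs are scaled over the 16 libraries and given as mean ± SD (n = 4).

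**Figure D4:**
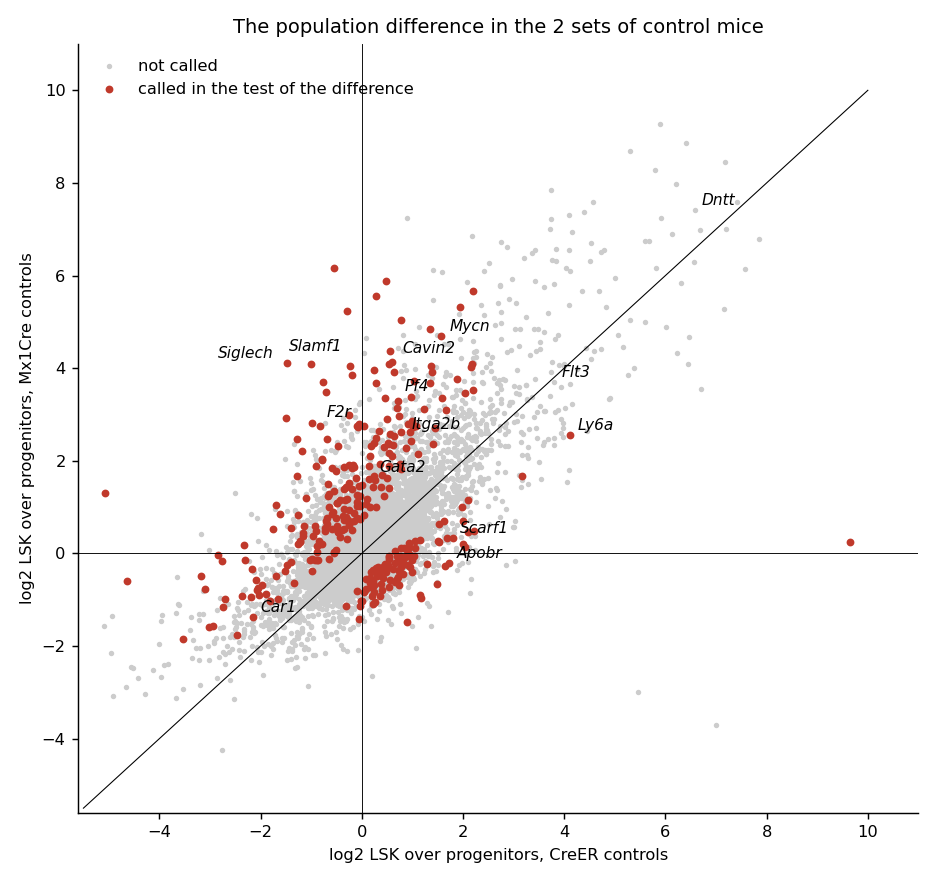
Log2 LSK over progenitor difference of each of 13999 genes in CreER controls (x axis) and Mx1Cre controls (y axis), with the 326 genes whose difference differed between the sets in red and the line of equality. Flt3 and Dntt lie near the line, megakaryocyte and stem cell genes such as F2r, Gata2 and Pf4 lie above it, and Ly6a, Scarf1 and Apobr below it.

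Of the megakaryocyte genes, 13 of 26 were called more positive with Mx1Cre in this test and none more negative, beside 1.56% of all genes. In CreER controls 9 of the 26 were called higher in LSK cells, at a median of 0.53. F2r had 50.8 ± 9.91 CPM in LSK cells and 7.30 ± 1.52 CPM in progenitors of Mx1Cre controls, and 166 ± 42.2 and 176 ± 61.1 CPM in those of CreER controls, an interaction of 2.85 ± 0.17 (edgeR adjusted p = 6.2e-05). In CreER mice the F2r difference was -0.054 ± 0.11, and the Mx1Cre progenitors had the lowest level of the 4 groups. Gata2 had 209 ± 36.2, 48.6 ± 10.5, 462 ± 33 and 438 ± 174 CPM in the same order of groups, an interaction of 1.95 ± 0.24 (edgeR adjusted p = 0.0027). Its LSK to progenitor difference was 0.16 ± 0.16 in CreER controls, where Gata2 was not called. Itga2b (1.84 ± 0.23), Pf4 (3.29 ± 0.36), Vwf (2.70 ± 0.41), Mmrn1 (3.47 ± 0.40) and Lat (2.40 ± 0.31) had interactions of the same sign. Pf4 was at 2.68, 0.426, 1.00 and 1.49 CPM in Mx1Cre progenitors and 17.4, 11.8, 9.98 and 18.8 CPM in CreER progenitors.

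Genes outside that list moved the same way. Angpt1, the angiopoietin made by immature blood cells, had 172 ± 23.6 and 19.7 ± 1.41 CPM in Mx1Cre LSK cells and progenitors and 312 ± 38.2 and 136 ± 40.2 CPM with CreER (1.89 ± 0.15, edgeR adjusted p = 0.00040). Cavin2, a caveolar protein (3.53 ± 0.29), the cation transporter Slc22a3 (2.13 ± 0.18) and the sphingosine phosphate exporter Spns2 (2.22 ± 0.19) completed the 5 with the lowest p. Slamf1 (4.28 ± 0.61), Mycn (3.13 ± 0.36) and Egr1 (3.25 ± 0.36) from the stem cell lists were also called, and Slamf1 was at 0, 0.341, 0.501 and 0.279 CPM in Mx1Cre progenitors and 17.1, 14.4, 6.42 and 7.05 CPM in CreER progenitors. For Prg2 (2.17 ± 0.41) the LSK libraries did not overlap between Cre lines, with 109.8 ± 67.6 CPM in Mx1Cre and 18.4 ± 13.5 CPM in CreER LSK cells. Its progenitor libraries overlapped and varied strongly between mice. They were at 235, 169, 44.9 and 63.6 CPM with Mx1Cre and 282, 22.8, 208 and 14.3 CPM with CreER. Of 18 tested genes of mast cells, basophils and eosinophils 9 were called more positive with Mx1Cre and none more negative, and of 33 erythroid genes 8, including Car1 (0.76 ± 0.16), Aqp1 (0.78 ± 0.13) and Cpox (0.67 ± 0.15).

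In the other direction, Ly6a was among the 5 genes with the lowest p. It stood at 18.7 ± 3.05 CPM in Mx1Cre LSK cells and 92.2 ± 25.9 CPM in CreER LSK cells, with 3.16 ± 0.512 and 5.20 ± 0.833 CPM in the progenitors (-1.56 ± 0.22, edgeR adjusted p = 0.0053). The LSK libraries of the 2 sets did not overlap, at 17.2, 17.8, 16.5 and 23.2 and 115, 69.6, 114 and 70 CPM. Cd34 was at 643 ± 71.5 and 731 ± 32.6 CPM in LSK cells and 321 ± 37.1 and 187 ± 35 CPM in progenitors (-0.98 ± 0.15). Coro1a, an actin regulator of leukocytes (-1.23 ± 0.15), the proton-sensing receptor Gpr65 (-1.26 ± 0.15), the lipoprotein receptor Apobr (-1.94 ± 0.25) and the scavenger receptor Scarf1 (-1.48 ± 0.19) were higher in Mx1Cre than in CreER progenitors, with Coro1a at 1131 ± 259.9 against 499 ± 67.9 CPM. Cdkn1a changed sign, from 0.88 in Mx1Cre controls to -0.58 ± 0.10 in CreER controls (1.43 ± 0.14), and its level was 14.8 ± 4.69 and 8.35 ± 3.24 CPM in Mx1Cre LSK cells and progenitors and 48.3 ± 1.86 and 72.5 ± 4.07 CPM in CreER ones. Flt3 (interaction -0.11 ± 0.19), Hlf (-0.40 ± 0.25), Hoxa9 (-0.079 ± 0.22) and Bcl2 (0.025 ± 0.18) were not called in this test.

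**Figure D5:**
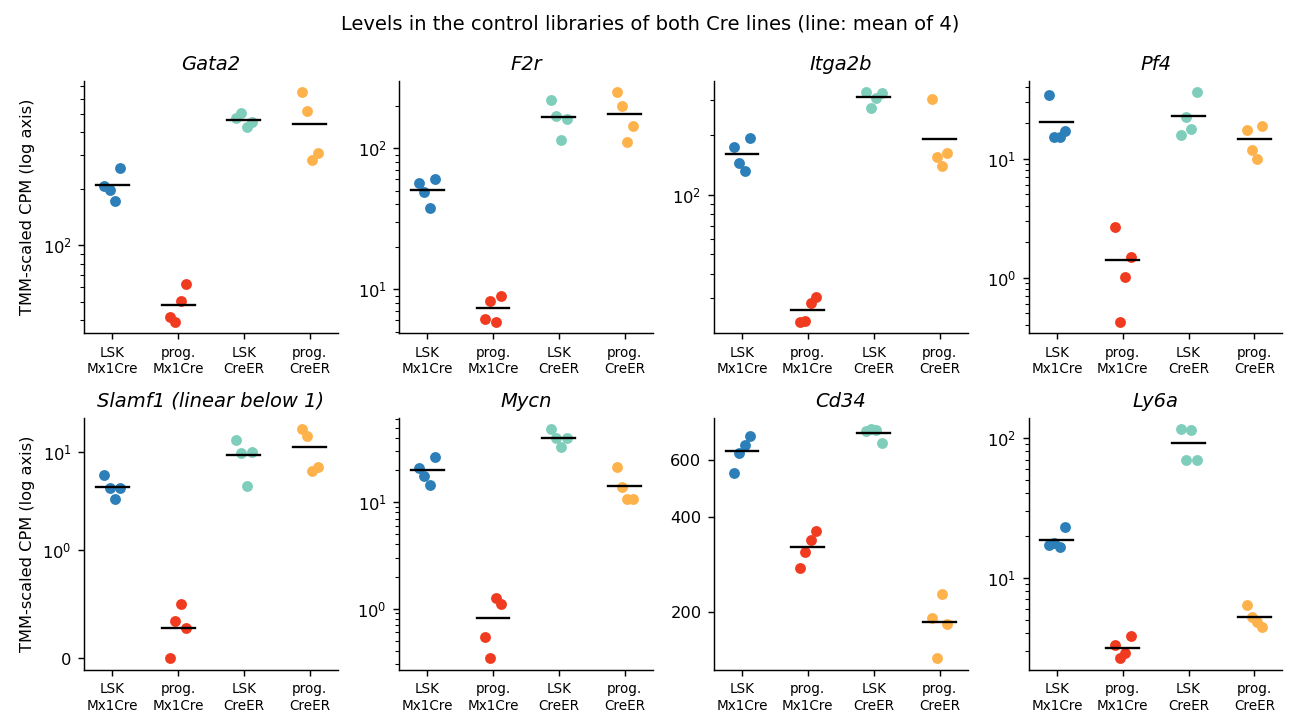
TMM-scaled CPM of 8 genes in the LSK and progenitor control libraries of both Cre lines, on log axes (linear below 1 for Slamf1), with a bar at the mean of 4. Gata2, F2r, Itga2b, Pf4, Slamf1 and Mycn are lowest in Mx1Cre progenitors, Cd34 is lowest in CreER progenitors, and Ly6a is highest in CreER LSK cells.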

How the data were processed

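RNA from sorted cells (50 ng per library, TruSeq kit, paired 80-base reads, per the labels' protocols) was sequenced and counted over genes by the authors, who deposited raw integer counts. The submitters' processing notes name featureCounts and mm10, with aligner, annotation and strandedness not given in the sources used here. Counts cover 27179 genes. Genes that overlap or share near-identical copies, such as Ly6, Hb and H2 genes, may therefore share or lose reads. Groups came from the sample labels. The members and the gene lists were chosen with earlier results of these data known.

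LSK and progenitor libraries were compared with edgeR 4.0.16 (R 4.3.3; TMM, filterByExpr, quasi-likelihood test, mouse as block, Benjamini-Hochberg threshold 0.05), also against a fold of 1.5. Progenitor library 1 was kept in every main fit. The 16 control libraries of both Cre lines were fitted with mouse as block for the difference between lines. CPM values are TMM-scaled, list sums are plain CPM, and TPM was computed with the gene lengths of the table. Same-numbered libraries came from the same animal, per the labels, and their deviations from the group means correlated at 0.292 to 0.480. Those of different mice correlated at -0.427 to 0.281. With mouse as a block, the level of each mouse is removed. The p-values of the main fit therefore measure the spread of the within-mouse LSK to progenitor difference among these 4 mice. Those of the fit of both Cre lines measure it among 8 control mice. With these depths, a test on simulated data of 13337 genes recovered 13.6% of 66 changes of 1.5-fold, 86.6% of 67 of 2-fold and 100% of 66 of 4-fold, and called 7 of 13138 unchanged genes. The simulated data had the same spread for every gene, no length trend and no library that stood apart. These rates therefore need not hold for the libraries compared here. DESeq2 1.42.0, limma 3.58.1 (voom), other filters, library sets and scalings, a removed length trend, no block and each mouse left out were alternatives.

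Genes named are Kat7, Ly6a, Kit and defining markers of other cells, among the 12 largest called per direction (same sign in 4 mice, mean of at least 3 log2 CPM, named genes), up to 5 of lowest adjusted p per list, up to 3 called against its majority, its most abundant member not called, and the 5 of lowest p per direction between Cre lines. Meis1, Mecom, Procr, Slamf1, Robo4, Mpo and Epb42 were added after their values were seen. Some genes are not reported here.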

Additional observations from a re-analysis of the deposited data

Results flagged for a closer look

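In groups of 4 libraries, chance puts the highest or lowest library this far from the other 3 in about 1 in 20 groups. Of 326 groups checked (the genes named, in each population), 16 (4.91%) had such a library, 7 of them progenitor library 1. In that library Meis1 stood at 5.12 CPM, Dnmt1 at 369 and Nkx2-3 at 0.074 CPM, below the other progenitor libraries, and Rgs1 at 2.97, Nkg7 at 447, Ms4a3 at 965 and Clec12a at 864 CPM, above them. Progenitor library 4 was high for the granulocyte genes Lyz2 (2444 CPM) and Chil3 (444 CPM) and for Mcl1 (370.3 CPM), progenitor library 2 for Vwf (9.07 CPM), and progenitor library 3 was low for Gstm1 (259.7 CPM). Among LSK libraries, library 4 was low for Kat7 (64.1 CPM) and Prtn3 (2405 CPM), library 3 for Jun (104 CPM), and library 1 was high for Pf4 (34.3 CPM).

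The population difference differed between Mx1Cre and CreER controls, by edgeR's test of the difference itself, for 39 of the genes named, 28 of them more positive with Mx1Cre, and all 39 were called again without Mx1Cre control mouse 1. The values are log2 differences of differences, Mx1Cre minus CreER. Megakaryocyte genes had values of 1.84 for Itga2b, 2.85 for F2r, 3.47 for Mmrn1, 3.29 for Pf4, 2.40 for Lat and 2.70 for Vwf. Stem cell and quiescence genes had 1.95 for Gata2, 3.13 for Mycn, 4.28 for Slamf1, 0.96 for Adgrg1 and 3.25 for Egr1 on the positive side, and -1.56 for Ly6a, -0.61 for Lyl1 and -0.98 for Cd34 on the negative side. Lymphoid and antigen presentation genes were divided, with 1.33 for Gimap1, 1.89 for Gimap6 and 1.25 for H2-Ob, against -1.32 for Cd52 and -0.79 for H2-DMa. Erythroid and iron genes were positive, with 0.76 for Car1, 0.78 for Aqp1, 0.67 for Cpox, 0.70 for Slc40a1 and 1.17 for Zfpm1. Myeloid genes had 2.17 for Prg2 and 5.59 for Siglech, against -1.34 for Lyz2, -0.81 for Cebpb, -1.23 for Coro1a, -1.26 for Gpr65, -1.94 for Apobr and -1.48 for Scarf1. The others were Cdkn1a at 1.43, Psrc1 at 1.04, Dst at 2.67, Angpt1 at 1.89, Cavin2 at 3.53, Slc22a3 at 2.13 and Spns2 at 2.22.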

How the results depend on the processing

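The count of 1374 genes became 3882 with the 16 control libraries in the fit (51.8% higher in LSK cells), 5004 with all 32 libraries (48.8% higher), 2173 with the length trend removed (56.6% higher) and 2162 with DESeq2, and ranged from 254 to 3204 with 1 mouse left out. Without the replicate block it was 1279, and 1963 without both the block and mouse 1. The count of 559 against a fold of 1.5 became 1022 and 1023 with 16 and 32 libraries and ranged from 75 to 900 with 1 mouse left out, and without the replicate block it was 481. The count of 326 genes that differed between Cre lines became 117 without the replicate block, 865 with DESeq2, 495 with the length trend removed and 571 with 32 libraries, and ranged from 119 to 1239 without 1 Mx1Cre mouse and from 86 to 170 without 1 CreER mouse. Fits with 16 or 32 libraries have more residual degrees of freedom. The causes of the changes in these counts, in those fits and in the others, were not tested. Size factors and filters kept the counts over all genes within 1.5 times, and limma-voom, run for the main contrast only, gave 1478.

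None of the 136 called genes named reversed in any alternative run. The 8 that reversed were not called: with the length trend removed, Myb was at -0.026, Ikzf1 at -0.071, Top2a at -0.035, Psmb8 at 0.030, Prg2 at 0.16, Csf3r at -0.11 and Dnmt1 at -0.24. Without mouse 1, with and without the block, Psmb8 was at 0.041 and 0.037, Csf3r at -0.22 and -0.22 and Dnmt1 at -0.16 and -0.16. Without the block Csf3r was at -0.079 and Dnmt1 at -0.010, with 16 and 32 libraries Csf3r was at -0.016 and -0.016, and without mouse 4 Myb was at -0.021 and Apobr at 0.052. With 1 mouse left out, the values ranged from -0.021 to 0.16 for Myb, -0.27 to 0.041 for Psmb8, -0.22 to 0.14 for Csf3r, -0.35 to 0.052 for Apobr and -0.16 to 0.11 for Dnmt1. Depth limits genes such as Dntt, with 28 counts in all progenitors, whose fold rests on few reads. Changes of 1.5-fold were mostly missed in the simulated data.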
